A study of Mus musculus with 24 samples.

Results

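Skin taken 28 days after an allogeneic splenocyte graft was compared between mice given an antibody against IFNAR1 and mice given an isotype antibody. The comparison rests on 8 of the 24 arrays of the series, the 4 titled as anti-IFNAR1 day 28 and the 4 titled as isotype day 28, and every gene with a probe set of its own was described, 18193 genes in all. All mice of the series were female RAG2-/-, a genotype without T and B cells of its own, and the RNA came from shaved skin of the dorsal scapular region. Mice of both compared groups had received B10.D2 splenocytes, which the submitters call GVH-SSc, a graft-versus-host model of systemic sclerosis. The 4 syngeneic arrays of day 28, from RAG2-/- mice grafted with Balb/c splenocytes and with no antibody named, served as the reference level, and 12 arrays of day 14 in the same 3 groups gave the earlier time. The labels do not give the strain background of the recipients, the age of the mice or the dose and timing of the antibody. They also do not say that the 4 arrays of a group are 4 separate animals, and the p-values therefore rest on the array-to-array spread alone, which may be technical.

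IFNAR1 is one chain of the receptor that all type I interferons share. When interferon binds, the kinases Jak1 and Tyk2 activate a complex of STAT proteins with Irf9, which binds interferon-stimulated response elements in the promoters of antiviral and antigen-presentation genes. Type I interferon-inducible genes are raised in blood and skin of people with systemic sclerosis, and in sclerodermatous graft-versus-host disease donor T cells and monocytes enter skin that later becomes fibrotic. Interferon gamma from T cells and natural killer cells acts through a separate receptor and induces an overlapping set of genes.

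All levels are log2(intensity + 16) from the deposited probe-set intensities, a scale on which a gene without signal lies near 4.3 to 4.5, and all differences are anti-IFNAR1 minus isotype on that scale, which understates the change of dim genes. A gene was called when its adjusted p was below 0.05 in limma's moderated test. The labelled tissue carried its defining markers: on the 8 arrays Krt14 of basal keratinocytes lay between 14.40 and 15.68 and Krt10 of the upper epidermis between 15.24 and 16.20. Rag1 and Rag2, the recombinase genes, lay between 4.41 and 4.84 on all 8 arrays. Array medians of intensity in the series ranged from 14.84 to 17.71.

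Single arrays stood apart before any comparison was made. The mean level of the 26 hair follicle genes, most of them keratins of the growing hair shaft and its inner root sheath, was 13.15 on anti-IFNAR1 array 2 against 4.79 to 5.48 on the other 3 arrays of that group, and 7.56 on isotype array 1 against 4.76 to 4.84 on the others. The same anti-IFNAR1 array was also the lowest of its group for adipocyte genes (10.44 against 11.14 to 11.24) and the highest for 25 cell cycle genes (9.39 against 7.42 to 7.78). Hair follicle genes therefore gave no stable difference: none of the 26 was called, and their median difference was 1.67 with all arrays and -0.48 without anti-IFNAR1 array 2. The 18 skeletal muscle genes, whose source in mouse dorsal skin is a thin muscle sheet beneath the fat, moved with the groups. Their list mean was 12.36, 13.58, 13.28 and 12.65 on the isotype arrays and 14.06, 13.48, 14.06 and 14.16 on the anti-IFNAR1 arrays. Counts of called members of most lists are therefore given below also without the array of highest hair follicle mean of each group (isotype 1 and anti-IFNAR1 2) and with the muscle mean as a covariate. Since that covariate moves with the groups, a call lost with it does not show that a difference is absent. List medians with it were -1.73 for macrophage genes (-1.47 without it), -1.71 for neutrophil genes (-1.90) and -1.11 for T cell genes (-1.28). Epidermal stress genes moved from -4.57 to -3.20 and interferon gamma-inducible genes from -1.45 to -0.92. The log2 ratio of 3' to 5' Gapdh control probe sets, a measure of RNA integrity and labelling, was 2.11 ± 1.19 under anti-IFNAR1 and 2.51 ± 1.54 under isotype (SD, n = 4 each), a difference of -0.40 with p = 0.6571 in an exact two-sided permutation test, whose smallest possible p is 0.0286.

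**Figure D1:**
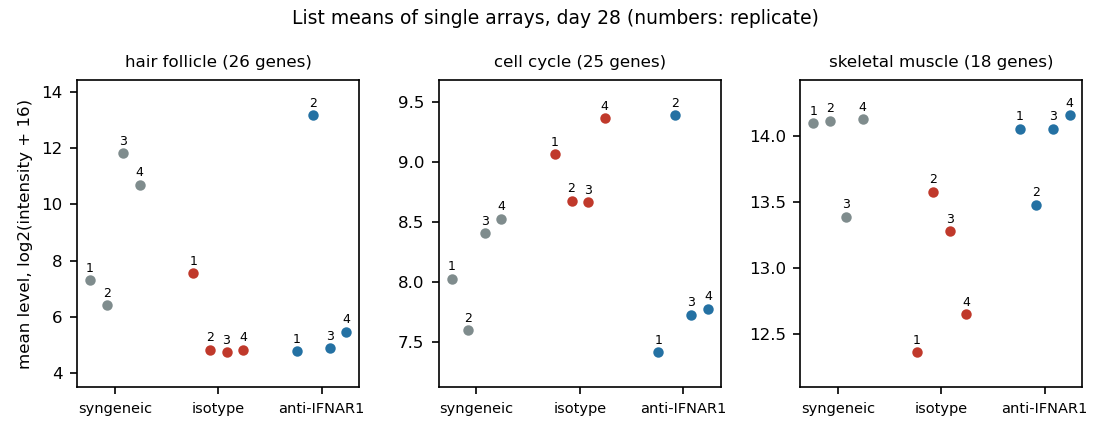
Mean level, log2(intensity + 16), of the hair follicle (26 genes), cell cycle (25) and skeletal muscle (18) lists on each of the 12 day 28 arrays, with the replicate number beside each point and syngeneic, isotype and anti-IFNAR1 arrays side by side. Anti-IFNAR1 array 2 sits at 13.15 for hair follicle genes and at 9.39 for cell cycle genes, above the other 3 arrays of its group, and skeletal muscle genes sit lower on 3 of the 4 isotype arrays than on every anti-IFNAR1 array.

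Anti-IFNAR1 skin differed from isotype skin at 2422 of the 18193 genes (13.3%), of which 1532 were higher (8.42%) and 890 lower (4.89%). Levels on the 4 and 4 arrays did not overlap for 3123 genes (17.2%), and 1983 of the called genes were among them. The falls were the larger ones: their median was -1.23, against 1.0 for the rises, and the 15 largest falls spanned -7.58 to -5.89 where the 15 largest rises spanned 3.42 to 5.36. The split between rises and falls depended on scaling. Of the called genes 63.3% were higher on the deposited scale, 51.6% after quantile normalization (2249 called) and 41.4% after centring array medians (2415 called), which shifted the median of all genes from -0.00075 to -0.175. The called genes named below kept their direction under both of these scalings, and among them Il1r2, Thbs4 and Smad3 lost their call under both. The count fell to 2248 without the arrays of highest hair follicle mean, to 1539 in a fit of the 8 arrays alone, to 1221 without the array of highest Gapdh ratio in each group and to 542 with the muscle mean as a covariate.

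**Figure D2:**
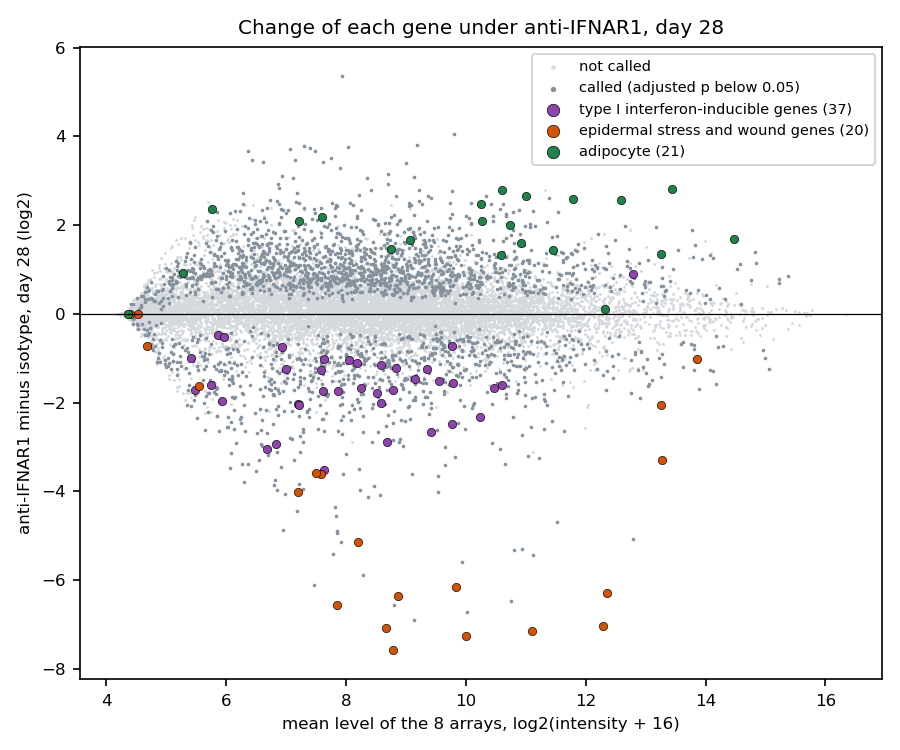
Each point is a gene, with its mean level over the 8 arrays on the horizontal axis, log2(intensity + 16), and its log2 difference, anti-IFNAR1 minus isotype at day 28, on the vertical axis; called genes are dark grey. Type I interferon-inducible genes (37) range from -3.51 to 0.90, epidermal stress and wound genes (20) reach -7.58, and 20 of the 21 adipocyte genes lie above 0, with a median of 2.00.

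Type I interferon-inducible genes came down to near the syngeneic level. Of 37 measured type I interferon-inducible genes (43 listed), 28 fell, none rose, and their median difference was -1.61 beside -0.00075 over all genes. Levels of 29 of the 37 did not overlap between the groups, beside 17.2% of all genes. The list mean was 8.97 ± 0.25 under isotype, 7.36 ± 0.25 under anti-IFNAR1 and 7.12 ± 0.39 in syngeneic skin (SD, n = 4 each). Because these genes are known to be switched on through promoter elements that hold GAAA repeats, the 250 bases upstream of the transcription start are shown for 4 of them and for Cxcl10, from the RefSeq annotation of GRCm38.p6, 5′ to 3′ on the gene's strand. Capitals mark a match to GAAA, any 2 bases and GAAA, or on the other strand to TTTC, any 2 bases and TTTC.
Oas3, chr5:120777660-120777909, minus strand: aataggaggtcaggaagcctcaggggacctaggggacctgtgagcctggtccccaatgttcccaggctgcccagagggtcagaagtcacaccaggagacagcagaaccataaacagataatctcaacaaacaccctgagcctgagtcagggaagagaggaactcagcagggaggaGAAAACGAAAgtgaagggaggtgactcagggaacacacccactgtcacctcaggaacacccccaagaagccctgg
Ifit1, chr19:34640639-34640888, plus strand: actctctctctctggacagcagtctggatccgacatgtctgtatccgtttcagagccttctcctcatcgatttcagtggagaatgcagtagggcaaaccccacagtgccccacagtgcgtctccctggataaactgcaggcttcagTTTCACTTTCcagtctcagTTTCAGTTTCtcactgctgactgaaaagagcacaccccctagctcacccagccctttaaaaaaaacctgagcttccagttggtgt
Oas1a, chr5:120907526-120907775, minus strand: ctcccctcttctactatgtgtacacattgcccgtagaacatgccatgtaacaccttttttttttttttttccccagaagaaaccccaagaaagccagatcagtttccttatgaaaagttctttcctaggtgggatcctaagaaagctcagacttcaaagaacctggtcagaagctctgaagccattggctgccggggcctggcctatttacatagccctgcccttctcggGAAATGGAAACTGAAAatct
Cxcl10, chr5:92348890-92349139, minus strand: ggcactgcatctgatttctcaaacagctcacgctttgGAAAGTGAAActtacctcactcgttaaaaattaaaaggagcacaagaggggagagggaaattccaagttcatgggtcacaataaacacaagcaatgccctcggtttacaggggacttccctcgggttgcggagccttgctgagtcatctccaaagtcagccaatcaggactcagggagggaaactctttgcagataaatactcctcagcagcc
Ms4a4c, chr19:11407411-11407660, plus strand: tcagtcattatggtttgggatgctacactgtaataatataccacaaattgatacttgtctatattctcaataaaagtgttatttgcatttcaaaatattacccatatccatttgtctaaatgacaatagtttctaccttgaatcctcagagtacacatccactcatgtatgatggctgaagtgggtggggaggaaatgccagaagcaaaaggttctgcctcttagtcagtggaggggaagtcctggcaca
The match in Oas3 begins 75 bases before the start, those in Ifit1 104 and 85 bases before it on the other strand, and those in Oas1a 20 and 14 bases before it, overlapping each other. In Cxcl10 it begins 213 bases before the start, and the window of Ms4a4c holds none. Of 14452 measured genes with a promoter in the table, 453 (3.13%) hold the motif on either strand in this window. It stands in 44 of 704 called falls (6.25%), in 25 of 1224 called rises (2.04%) in 10 of 26 type I interferon-inducible genes (38.5%), in 8 of 13 interferon gamma-inducible genes (61.5%) and in 4 of 19 genes of interferon signalling (21.1%). Among the type I genes the share was 8 of 20 called genes and 2 of 6 genes not called, and a match describes letters, not a bound site.

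Ms4a4c, a membrane-spanning protein of the MS4A family, had the largest fall of the list. It was at 9.61, 8.85, 10.21 and 8.89 on the isotype arrays and at 5.62, 6.15, 6.09 and 5.67 on the anti-IFNAR1 arrays. Every antibody array lay below every isotype array and within the range of syngeneic skin (5.07 to 6.22), a fall of 3.51 (SE 0.68, adjusted p = 0.0022). Of the oligoadenylate synthetases, which make the messenger that activates RNase L, Oas1a, Oas2 and Oas3 fell and Oas1b was not called (-0.48, SE 0.19, adjusted p = 0.11). Oas2 went from 10.92, 10.16, 9.59 and 9.88 under isotype to 8.37, 7.35, 6.77 and 6.48 under the antibody, a difference of -2.89 (SE 0.48, adjusted p = 0.00074). Oas3 was at 8.59, 8.53, 7.88 and 8.22 against 6.37, 5.75, 4.60 and 4.73, a difference of -2.94 (SE 0.61, adjusted p = 0.0035). The groups were apart for both genes, and antibody array 1 was the highest of its group for each. Ifit1, which binds foreign RNA, stood at 11.01, 10.54, 10.92 and 10.49 under isotype and at 9.53, 8.33, 7.18 and 7.29 under the antibody, a difference of -2.66 (SE 0.54, adjusted p = 0.003). Irf7, the factor that amplifies interferon alpha production, was at 8.39, 8.31, 8.24 and 7.93 against 6.68, 6.57, 5.61 and 5.91, a difference of -2.02 (SE 0.44, adjusted p = 0.0044). For these genes too no antibody array reached the isotype range.

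The members differed in how firmly they fell. Slfn1, a schlafen family gene, fell by 3.05 (adjusted p = 0.0021) and Oas1a by 2.32 (adjusted p = 0.0037), and both kept their call when any 1 array was left out. Mx1, an antiviral GTPase, fell by 1.60 (adjusted p = 0.028), but the call was lost on leaving out any of 4 of the 8 arrays, with an adjusted p of up to 0.085 without isotype array 3. Rsad2, the antiviral enzyme viperin, fell by 1.71 (adjusted p = 0.038), its groups overlapped, and the call was lost on leaving out any of 6 arrays, with an adjusted p of up to 0.13 without isotype array 1. The 9 members that were not called were Ifi204, Ifit2, Eif2ak2, Ifit3, Cmpk2, Ifih1, Slfn5, Oas1b and Ifi27l2a. Ifi27l2a was the one member with a positive difference, at 12.05, 12.37, 13.20 and 11.72 under isotype against 13.19, 12.57, 13.43 and 13.76 under the antibody (0.90, SE 0.35, adjusted p = 0.11), while syngeneic skin averaged 13.10, and it was called higher without isotype array 3 or without anti-IFNAR1 array 2. Counts of called members ranged from 20 (without anti-IFNAR1 array 4) to 26 when 1 array was left out, and 20 were called without the arrays of highest hair follicle mean. With the muscle mean as a covariate 1 was called and the median was -1.40.

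The receptor chains themselves were not called. Ifnar1 was at 7.15, 7.90, 8.64 and 7.66 under isotype and at 6.75, 7.45, 7.34 and 7.92 under anti-IFNAR1, overlapping ranges with a difference of -0.47 (SE 0.29, adjusted p = 0.35), and Ifnar2 differed by -0.25 (SE 0.34, adjusted p = 0.84). Beside 4.89% of all genes called lower, 4 of 19 genes for interferon ligands, receptors and signalling fell and none rose, with a median of -0.25. They were Stat2, a subunit of the interferon transcription complex (-1.75, adjusted p = 0.019), Irf5 (-1.04, adjusted p = 0.011), the feedback inhibitor Socs3 (-2.08, adjusted p = 0.015) and Ifng. The adjusted p was 0.052 for Stat2 without anti-IFNAR1 array 4 and 0.056 for Socs3 without isotype array 4, and Irf5 was not called without the arrays of highest hair follicle mean, which left 3 called genes. None of the 19 was called with the muscle mean as a covariate. The interferon alpha and beta genes on the array, Ifna4, Ifna5 and Ifnb1, had group means of 4.32 to 4.46 under both antibodies, at the bottom of the scale.

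Of the interferon gamma arm, Ifng fell, and how many of the genes it induces were called depended on the arrays fitted. Ifng, made by activated T cells and natural killer cells, was at 7.25, 7.52, 7.54 and 7.57 under isotype and at 5.28, 4.99, 4.82 and 4.96 under the antibody. The groups were far apart relative to their spread (-2.46, SE 0.44, adjusted p = 0.0013), and syngeneic skin averaged 4.55. Among 21 interferon gamma-inducible genes all differences were negative and the median was -1.45. The groups did not overlap for 16 of the 21, beside 17.2% of all genes. In the fit of all 24 arrays 4 of them fell, in the fit of the 12 day 28 arrays 14 and in that of the 8 arrays 12. Called members numbered 4 without the arrays of highest hair follicle mean, 3 or 4 with any 1 array left out and 0 with the muscle mean as a covariate. Cxcl10, a chemokine that draws Cxcr3-bearing T cells, went from 11.83, 12.36, 12.90 and 12.26 to 8.77, 9.61, 8.72 and 8.73, a fall of 3.38 (SE 0.70, adjusted p = 0.0033). The related Cxcl11 fell by 3.60 (adjusted p = 0.0016), Ifi47, a GTPase of the immunity-related family, by 1.96 (adjusted p = 0.016), and the uridine phosphorylase Upp1 by 2.24 with overlapping groups and a call lost on leaving out any of 6 arrays (adjusted p up to 0.18, without isotype array 4). Cxcl9, another Cxcr3 ligand, was at 12.62, 13.28, 13.83 and 13.31 against 10.39, 11.27, 10.39 and 10.75. These groups did not overlap, yet the difference of -2.56 (SE 0.90) had an adjusted p of 0.067. That SE rests on the spread within all 6 groups, those of day 14 included. In the fit of the 12 day 28 arrays the SE of Cxcl9 was 0.44 for antibody against syngeneic skin. The list mean was 10.58 ± 0.43 under isotype, 9.0 ± 0.06 under the antibody and 6.99 ± 0.24 in syngeneic skin, so antibody arrays lay between the other 2 groups.

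Antigen presentation genes had smaller differences. None of 13 class I genes was called in the fit of all arrays (5 fell in the fits of the 8 and of the 12 arrays), with a median of -0.56 and the most negative value at Psmb10, an immunoproteasome subunit (-0.94, SE 0.33, adjusted p = 0.068). Of 11 class II genes only Ctss, the cathepsin that trims the invariant chain, fell, from 14.29, 14.88, 14.88 and 14.86 to 13.00, 13.15, 13.04 and 12.98 (-1.68, SE 0.33, adjusted p = 0.0021). The class II chains H2-Aa and H2-Ab1 differed by -0.11 (SE 0.18) and -0.36 (SE 0.26), and neither was called. Ctss was not called with the muscle mean as a covariate.

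**Figure D3:**
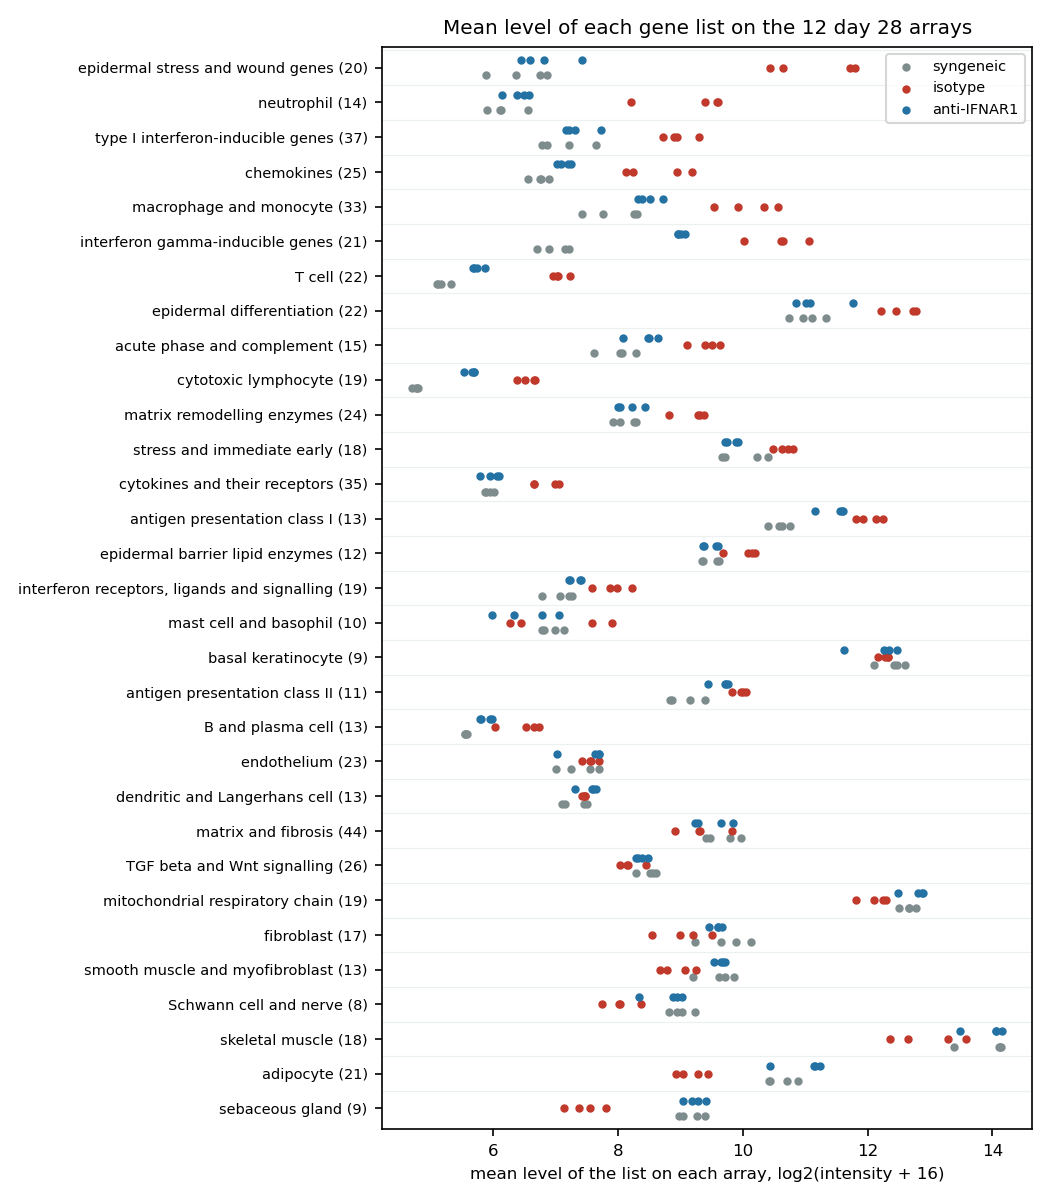
Mean level of each of 31 gene lists, log2(intensity + 16), on the 12 day 28 arrays, 1 point per array, with the number of measured genes in brackets and lists ordered from the largest fall to the largest rise. Epidermal stress and wound genes average 11.15 under isotype and 6.82 under anti-IFNAR1, type I interferon-inducible genes 8.97 and 7.36, and adipocyte genes 9.18 and 10.99, and for these 3 lists no anti-IFNAR1 array reaches the isotype range.

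T cell genes fell as a group. In whole skin fewer cells of a type and less RNA per cell cannot be told apart. Of 22 T cell genes 17 fell and none rose (median -1.28), and the list mean was 7.07 ± 0.12 under isotype, 5.75 ± 0.08 under anti-IFNAR1 and 5.17 ± 0.10 in syngeneic skin. Cd3d, a subunit of the T cell receptor complex, was at 8.41, 8.45, 8.51 and 8.13 under isotype, at 6.59, 5.74, 5.88 and 6.04 under the antibody and at 4.26 to 4.40 in syngeneic skin. The 3 groups did not overlap, and the fall of 2.31 (SE 0.23, adjusted p = 2e-05) was among the most precise of the list. Cd4, the helper co-receptor, went from 7.85, 7.62, 7.46 and 6.27 to 4.63, 5.23, 4.55 and 4.56 (-2.56, SE 0.41, adjusted p = 0.00057), close to the bottom of the scale. Cd8a, the cytotoxic co-receptor, was at 7.94, 7.61, 7.62 and 8.07 against 7.04, 6.05, 6.66 and 6.09 (-1.35, SE 0.27, adjusted p = 0.0025), apart but well above that bottom. Icos, a costimulatory receptor of activated T cells, fell by 2.98 (SE 0.45, adjusted p = 0.00036). Foxp3 of regulatory T cells was at 4.55 under isotype and 4.43 under the antibody, and was not called. Between 15 and 18 T cell genes were called when 1 array was left out, 15 without the arrays of highest hair follicle mean and 8 with the muscle mean as a covariate.

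Cytotoxic genes did not move as one. Of 19 listed genes measured, 8 fell and none rose (median -0.88). Differences were positive for 4 of the 19, up to 1.86, and 1 member was called higher in the fits of the 8 and of the 12 arrays. Gzmk, a granzyme of memory-type T cells, was at 9.65, 8.77, 7.84 and 8.63 under isotype and at 5.65, 5.71, 6.36 and 5.60 under the antibody, without overlap (-2.89, SE 0.31, adjusted p = 4.2e-05). Ccl5, a chemokine of effector T cells, fell by 3.40 (adjusted p = 0.0017) and the granule protein gene Nkg7 by 2.20 (adjusted p = 0.0031). Gzma, the tryptase granzyme, was at 5.50, 7.48, 8.99 and 9.47 under isotype, a wide spread, and at 8.19, 7.65, 8.09 and 8.57 under anti-IFNAR1. Its difference was 0.26 with a 95% interval of -1.55 to 2.08. Gzmb was at 7.82, 8.84, 9.89 and 9.42 against 7.81, 7.49, 7.84 and 8.14 (-1.18, adjusted p = 0.31), with syngeneic skin at 4.78. For both granzymes the isotype and antibody ranges overlapped. Called cytotoxic genes numbered 5 without the arrays of highest hair follicle mean and 2 with the muscle mean as a covariate.

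B and plasma cell genes fell at 4 of 13 members in the fit of all arrays, at 4 without the arrays of highest hair follicle mean, at 2 without isotype array 4, at 1 with the muscle mean as a covariate and at none in the fit of the 8 arrays alone. Ighm, the immunoglobulin M heavy chain, was at 10.84, 13.34, 13.14 and 13.26 under isotype, with array 1 low, and at 10.70, 9.60, 10.10 and 10.50 under the antibody (-2.42, SE 0.59, adjusted p = 0.0095). The size of the fall depended on the probe set. Those of level 9.70, 9.19, 8.54, 7.48, 7.38, 6.70 and 6.13 differed by -1.71, -6.10, -6.72, -5.87, -5.21, -4.26 and -3.24. Those at the bottom of the scale differed by -0.19 to -0.0033. The joining chain gene Jchain fell by 2.01 (adjusted p = 0.029) with overlapping groups, and the call was lost on leaving out any of 6 arrays, with an adjusted p of up to 0.11 without anti-IFNAR1 array 3. Cd79a, Ms4a1 and Pax5, which define B cells, had group means of 4.30 to 4.79, at or near the bottom of the scale.

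About as many macrophage genes fell as were not called. Of 33 macrophage and monocyte genes 17 fell and none rose (median -1.47), and the list mean was 10.09 ± 0.45 under isotype, 8.48 ± 0.18 under anti-IFNAR1 and 7.94 ± 0.42 in syngeneic skin. Clec4d, a C-type lectin receptor for microbial glycolipids, was at 10.39, 9.42, 9.76 and 10.89 under isotype and at 5.65, 5.57, 5.43 and 5.59 under the antibody (-4.55, SE 0.65, adjusted p = 0.00025). Its partner Clec4e went from 7.13, 7.52, 8.29 and 8.27 to 4.26, 4.50, 4.26 and 4.26 (-3.48, SE 0.43, adjusted p = 7.5e-05), with the antibody arrays at the bottom of the scale. Chil3, a chitinase-like protein, varied widely under isotype, at 6.91, 9.57, 12.08 and 13.52, and lay between 4.39 and 4.43 under the antibody (-6.12, SE 1.36, adjusted p = 0.0055). Cd68, a lysosomal protein of macrophages, fell by 1.48 (adjusted p = 0.011). Csf1r (-0.37, 95% interval -0.70 to -0.04, adjusted p = 0.14), Adgre1 (-0.23, interval -1.18 to 0.72) and Mrc1 (-0.49, adjusted p = 0.77) were not called. With Cd68 these were the genes set to mark macrophages, chosen with earlier results of these data known. Called members numbered 13 without the arrays of highest hair follicle mean and 6 with the muscle mean as a covariate, where the median was -1.73.

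Neutrophil genes had the most negative median of the leukocyte lists. Of 14 genes 11 fell and 1, the decoy receptor gene Il1r2, rose (1.13, adjusted p = 0.037, overlapping groups, lost on leaving out any of 5 arrays, up to 0.13 without anti-IFNAR1 array 3). The median was -1.90, and the list mean was 9.20 ± 0.67 under isotype, 6.40 ± 0.19 under the antibody and 6.18 ± 0.28 in syngeneic skin. S100a9, a calprotectin subunit, was at 14.70, 12.58, 13.89 and 14.74 under isotype and at 6.41, 7.87, 7.60 and 8.17 under the antibody. Every isotype array lay far above every antibody array, and the difference was -6.47 (SE 1.06, adjusted p = 0.00068). Its partner S100a8 fell by 5.31 (adjusted p = 0.0012), and keratinocytes under stress also make both. Ngp, a granule protein of neutrophils, was at 10.95, 6.53, 10.11 and 9.99 against 4.50, 4.58, 4.50 and 4.49 (-4.88, SE 0.85, adjusted p = 0.0011), and Cxcr2, the receptor for neutrophil-drawing chemokines, fell by 1.18 (adjusted p = 0.00054). Stfa2l1, a stefin protease inhibitor, fell by 6.73 (adjusted p = 4.6e-05). In the fits of the 8 and of the 12 arrays 8 of the 14 fell, without the arrays of highest hair follicle mean 11 did, and with the muscle mean as a covariate 5 fell and none rose.

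Chemokine genes fell in the same arrays. Of 25 chemokine genes 11 fell and 1 rose (median -1.49). Cxcl2, a neutrophil attractant, was at 10.80, 8.94, 10.35 and 11.90 under isotype and at 4.90, 5.64, 4.35 and 5.44 under the antibody (-5.41, SE 0.86, adjusted p = 0.00052). Ccl3, which draws monocytes and T cells, was at 8.76, 7.60, 8.84 and 9.53 against 4.98, 4.98, 4.56 and 5.22 (-3.74, SE 0.36, adjusted p = 2e-05). For both, isotype arrays were apart from the antibody and the syngeneic arrays, whose ranges overlapped. Ccl2, the ligand of Ccr2 on monocytes, fell by 2.18 (adjusted p = 0.034), and the call was lost on leaving out any of 7 arrays, with an adjusted p of up to 0.11 without isotype array 3. The riser was Ccl27a, a keratinocyte chemokine for skin-homing T cells (0.64, SE 0.15, adjusted p = 0.0072). Called falls numbered 7 without isotype array 3, anti-IFNAR1 array 1 or anti-IFNAR1 array 4, 13 without isotype array 1, 12 without the arrays of highest hair follicle mean and 3 with the muscle mean as a covariate.

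Of 35 cytokine and cytokine receptor genes 9 fell and none rose (median -0.59). Il1b, the inflammasome-processed interleukin, was at 11.08, 8.99, 11.06 and 10.77 under isotype and at 5.09, 5.55, 4.76 and 5.96 under the antibody (-5.13, SE 0.73, adjusted p = 0.00024). Il1f6, an interleukin-36 ligand of keratinocytes, was at 8.21, 8.40, 7.93 and 8.54 against 4.51, 5.34, 4.53 and 4.53 (-3.54, SE 0.39, adjusted p = 4.2e-05). The groups were far apart for both. Tnf fell by 1.48 (adjusted p = 0.0049). Il6 had apart groups and a difference of -1.49 with an adjusted p of 0.29, and Il4, Il5, Il17a and Il21 had group means of 4.34 to 4.48, at the bottom of the scale. The count of called cytokine genes was 4 without anti-IFNAR1 array 1 5 without anti-IFNAR1 array 4, 8 without the arrays of highest hair follicle mean and 2 with the muscle mean as a covariate. Of 15 acute phase and complement genes 2 fell and 2 rose, where 4.89% of all genes were called lower and 8.42% higher. Saa3, a serum amyloid protein made locally in inflamed tissue, led with 14.16, 13.80, 13.56 and 13.85 against 9.02, 8.40, 8.39 and 7.83 (-5.43, SE 0.77, adjusted p = 0.00024). With the muscle mean as a covariate 1 of the 15 fell and none rose, and without the arrays of highest hair follicle mean 2 fell and 1 rose.

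**Figure D4:**
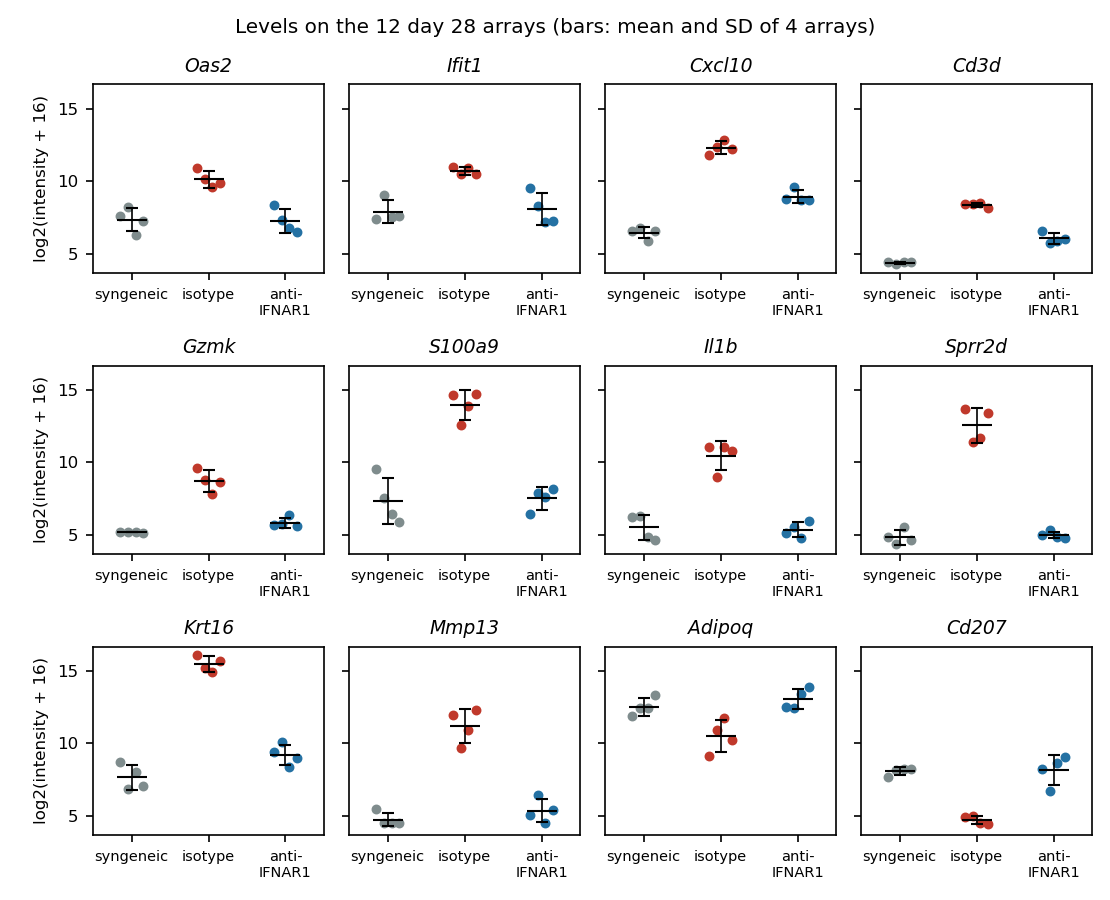
Level of 12 genes, log2(intensity + 16), on each of the 4 syngeneic, 4 isotype and 4 anti-IFNAR1 arrays of day 28; points are arrays and bars give the mean and SD. Isotype arrays stand above both other groups for Oas2, Ifit1, Cxcl10, Cd3d, Gzmk, S100a9, Il1b, Sprr2d, Krt16 and Mmp13 and below the anti-IFNAR1 arrays for Adipoq and Cd207; Cxcl10 and Cd3d keep an anti-IFNAR1 level above every syngeneic array.

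The epidermal stress list had the most negative median of the 36 lists. Of 20 epidermal stress and wound genes, which keratinocytes switch on in wounds and psoriasis-like inflammation, 14 fell and none rose, with a median of -4.57 beside 4.89% of all genes called lower. The list mean was 11.15 ± 0.71 under isotype, 6.82 ± 0.44 under anti-IFNAR1 and 6.47 ± 0.44 in syngeneic skin. Sprr2d, a small proline-rich protein of the cornified envelope, was at 13.72, 11.39, 11.71 and 13.45 under isotype and at 5.01, 5.29, 4.84 and 4.80 under the antibody. That is a 192-fold difference on the offset scale (-7.58, SE 1.04, adjusted p = 0.00018), and the antibody arrays lay within the syngeneic range of 4.35 to 5.52. Krt16, a keratin of wounded and hyperproliferative epidermis, was at 16.12, 15.25, 14.93 and 15.72 against 9.40, 10.08, 8.39 and 8.99 (-6.29, SE 0.95, adjusted p = 0.00036). Krt6b, its usual partner, went from 16.04, 15.57, 15.58 and 16 to 8.58, 10.58, 6.44 and 9.49 (-7.03, SE 1.69, adjusted p = 0.0088), with a wide spread on the antibody side. Lce3f and Lce3a, late cornified envelope genes, fell by 7.25 and 6.56 (adjusted p = 0.0017 and 9.7e-05). Ptgs2, the inducible prostaglandin synthase, fell by 4.00 (adjusted p = 0.00099). Sprr1a (-2.06, adjusted p = 0.061) and Krt17 (-1.03, adjusted p = 0.053) were not called. The count of called members was 14 to 16 with any 1 array left out, 15 without the arrays of highest hair follicle mean and 8 with the muscle mean as a covariate.

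Resting differentiation genes moved less. Of 22 epidermal differentiation genes 9 fell and none rose (median -1.18). The kallikrein protease gene Klk13 was at 12.72, 11.25, 11.40 and 12.93 under isotype and at 4.69, 8.04, 4.66 and 4.70 under the antibody, where array 2 was high (-6.55, SE 1.18, adjusted p = 0.0013). Ivl, the envelope precursor involucrin, fell by 1.30 (SE 0.23, adjusted p = 0.0011). Krt10 and Lor, the main keratin and envelope protein of resting upper epidermis, had overlapping groups and differences of 0.09 (95% interval -0.61 to 0.79) and 0.11 (-0.71 to 0.92). In the basal layer Krt14 fell by 1.01 (SE 0.18, adjusted p = 0.0013) and Krt15, a keratin of quiescent basal and bulge cells, rose by 1.95 (SE 0.47, adjusted p = 0.0085). Krt15 was at 11.65, 12.57, 12.99 and 11.59 under isotype and at 14.24, 13.48, 14.43 and 14.45 under the antibody, which lay beside syngeneic skin (14.39 on average). Of 12 barrier lipid enzyme genes 4 fell (median -0.54), beside 4.89% of all genes called lower. With 1 array left out 1 to 3 were called, and 1 without isotype array 4, anti-IFNAR1 array 1 or anti-IFNAR1 array 4. With the muscle mean as a covariate 5 differentiation genes fell and no basal or barrier lipid gene was called, and without the arrays of highest hair follicle mean 11 differentiation and 2 barrier lipid genes fell.

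Cd207, which encodes langerin and marks Langerhans cells, went the other way. It was at 4.89, 5.01, 4.46 and 4.44 on the isotype arrays, near the bottom of the scale, at 8.21, 6.73, 8.68 and 9.03 under anti-IFNAR1 and at 7.70, 8.18, 8.21 and 8.24 in syngeneic skin. Isotype arrays were apart from both other groups, and the rise was 3.47 (SE 0.65, adjusted p = 0.0017). Epcam, which Langerhans cells and follicle keratinocytes also express, differed by -0.10 (SE 0.29). Of 13 dendritic and Langerhans cell genes Cd207 was the 1 called rise and Bst2 the 1 called fall. Differences were below 0 for 7 of the 13 and above 0 for 6, with a median of -0.0018, so the list did not rise with Cd207. With the muscle mean as a covariate neither Cd207 nor Bst2 was called.

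Few matrix genes, the readout of fibrosis, were called. Of 44 matrix and fibrosis genes 2 rose and 1 fell (median 0.25), where 13.3% of all genes were called. Without the arrays of highest hair follicle mean 4 rose and 2 fell, and with the muscle mean as a covariate 1 rose and none fell. Isotype skin itself had 1 of the 44 higher and 6 lower than syngeneic skin (median -0.45). Col1a1, the main fibrillar collagen chain of dermis, was at 11.97, 12.19, 13.10 and 9.67 under isotype and at 11.14, 13.83, 10.97 and 12.46 under the antibody. The arrays of each group were scattered across a common range, and the difference was 0.37 with a 95% interval of -1.26 to 2.00. Col1a2 differed by 0.34 (interval -0.91 to 1.59), Col3a1 by 0.35 (-0.60 to 1.30) and Fn1, fibronectin, by 0.16 (-0.77 to 1.09). These intervals, with that of Col1a1, all reach past a 2-fold rise, so they do not show unchanged levels. The fall was Tnc, tenascin C of wounds and active fibrosis, at 11.25, 10.91, 12.37 and 11.63 against 6.56, 9.91, 6.33 and 7.33 (-4.01, SE 0.96, adjusted p = 0.0087). The rises were Col15a1, a basement membrane collagen (1.53, SE 0.27, adjusted p = 0.0013), and Thbs4, a thrombospondin (1.06, adjusted p = 0.045, lost on leaving out any of 4 arrays, up to 0.17 without isotype array 1). Acta2, the smooth muscle actin of myofibroblasts, differed by 0.58 (interval 0.08 to 1.08, adjusted p = 0.12) with overlapping groups, and of 17 fibroblast genes 3 rose (Cd34, Dpt and Lrig1), against 8.42% of all genes, and none with the muscle mean as a covariate. Without isotype array 4 the adjusted p of Dpt, dermatopontin, was 0.051, and Lrig1 was not called without the arrays of highest hair follicle mean.

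Enzymes that cut the matrix, and their inhibitors, had more calls. Of 24 matrix remodelling genes 9 fell and 2 rose (median -0.76), 7 fell and 2 rose without the arrays of highest hair follicle mean, and 2 fell and 1 rose with the muscle mean as a covariate. Mmp13, a collagenase, was at 11.97, 9.68, 10.95 and 12.31 under isotype and at 5.06, 6.40, 4.49 and 5.38 under the antibody (-5.89, SE 0.98, adjusted p = 0.00076). Mmp12, the macrophage elastase, fell by 3.95 (adjusted p = 0.0018) and Plaur, the urokinase receptor, by 2.59 (adjusted p = 0.001). Fap, a fibroblast surface protease, rose from 7.88, 7.81, 8.22 and 7.47 to 9.79, 10.21, 9.42 and 10.06 (2.02, SE 0.29, adjusted p = 0.00028), the level of syngeneic skin (9.80). The other rise was Timp2, by 0.88 on the probe set used. Its probe sets of level 12.41, 11.08, 9.87 and 6.42 differed by 0.07, -0.32, 0.06 and 0.19. Timp1, a metalloproteinase inhibitor, fell by 2.39 (adjusted p = 0.021), and the call was lost on leaving out any of 3 arrays, with an adjusted p of up to 0.069 without isotype array 1. Among 26 genes of TGF beta and Wnt signalling 3 fell and 2 rose, where 13.3% of all genes were called, so the count says little of the list, and none was called with the muscle mean as a covariate. Pmepa1, a feedback target of TGF beta, fell by 1.79 (adjusted p = 0.0089), Inhba, an activin subunit, by 1.10 (adjusted p = 0.002) and the Smad co-repressor Skil by 1.09 (adjusted p = 0.0029). Bmp4 rose by 1.67 (SE 0.38, adjusted p = 0.0059) and Smad3 by 0.70 (adjusted p = 0.013). Bmp4 was not called without the arrays of highest hair follicle mean, and the adjusted p of Smad3 was 0.053 without anti-IFNAR1 array 1, with its call lost without isotype array 4 too. Tgfb1 itself had apart groups and a difference of -0.82 (SE 0.32, adjusted p = 0.1). Of 23 vessel genes 2 fell and 1 rose, where 13.3% of all genes were called. Vcam1 and Icam1, adhesion molecules of activated endothelium, fell by 1.77 and 1.26 (adjusted p = 0.014 and 0.0048). Of the endothelial markers Kdr was the called rise, while Pecam1 (-0.13) and Cdh5 (0.80) were not called. None of the 23 vessel genes was called with the muscle mean as a covariate.

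Adipocyte genes rose nearly as a whole. Of 21 adipocyte genes 19 rose and 0 fell; their median was 2.00, beside 8.42% of all genes called higher, and Ucp1 and Cebpa were the 2 not called. The list mean was 9.18 ± 0.24 under isotype, 10.99 ± 0.37 under anti-IFNAR1 and 10.61 ± 0.23 in syngeneic skin. Adipoq, the adipocyte hormone adiponectin, was at 9.13, 10.90, 11.73 and 10.22 under isotype and at 12.55, 12.48, 13.42 and 13.91 under the antibody (2.60, SE 0.56, adjusted p = 0.0047). Lep, leptin, was near the bottom of the scale under isotype (4.75, 4.44, 4.61 and 4.52) and at 7.87, 6.07, 6.63 and 7.20 under the antibody (2.36, SE 0.47, adjusted p = 0.0027). Scd1, the stearoyl-CoA desaturase of lipogenic cells, was at 12.22, 11.96, 12.57 and 11.40 against 14.99, 14.22, 15.12 and 15.04 (2.80, SE 0.41, adjusted p = 0.0003). None of these 3 genes overlapped between the groups. Pparg, the master regulator of fat cell differentiation, rose by 2.09 (adjusted p = 0.0031) and Fabp4, a fatty acid carrier, by 1.68 (adjusted p = 0.00012). Without any 1 array 17 to 19 were called, without the arrays of highest hair follicle mean 19, and with the muscle mean as a covariate 3. Of 9 sebaceous gland genes 5 rose, 2 of which, Scd1 and Elovl6, also stand in the adipocyte list, and 3 rose with the muscle mean as a covariate. Far2, which makes the fatty alcohols of sebum waxes, rose by 2.83 (adjusted p = 0.011), and Insig1, a sterol sensor regulator, by 2.03 (adjusted p = 7.5e-05). Of 14 cholesterol synthesis genes none rose and 1, Sc5d, fell by 0.71 on the probe set used, while another of its probe sets of level 8.44 differed by 0.99; its call was lost without isotype array 4 or anti-IFNAR1 array 3.

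The 15 largest rises of all genes were Cyp2g1, Ces1d, Rbp4, Acaa1b, Enpep, Thrsp, Aldh1a7, Npr3, Ces1f, Mtarc1, Abca5, Cbs, Cd207, Pm20d1 and Adig. Cyp2g1, a cytochrome P450, led with 4.91, 4.84, 4.83 and 6.40 under isotype against 10.53, 10.03, 11.50 and 10.39 under the antibody (5.36, SE 0.98, adjusted p = 0.0014). Ces1d, a carboxylesterase that hydrolyses fat cell triglyceride, was at 8.05, 7.62, 8.53 and 6.90 against 12.12, 10.79, 12.24 and 12.13 (4.04, SE 0.59, adjusted p = 0.0003). Rbp4, the retinol carrier of plasma that fat cells also secrete, was at 7.55, 7.38, 8.45 and 5.73 against 11.18, 10.34, 11.06 and 11.77 (3.81, SE 0.73, adjusted p = 0.0021). In all 3 the antibody arrays lay beside syngeneic skin, whose means were 10.91, 11.60 and 10.43.

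Muscle and mitochondrial genes rose by smaller amounts. Of 18 skeletal muscle genes 9 rose (median 0.90), and 4 did in the fit of the 8 arrays. Myh4, a fast myosin, was at 14.57, 15.22, 15.02 and 14.54 under isotype and at 15.74, 15.40, 15.62 and 15.75 under the antibody (0.79, SE 0.16, adjusted p = 0.0032). Of 19 mitochondrial respiratory chain genes 7 rose (median 0.46), beside 8.42% of all genes called higher, and none rose with the muscle mean as a covariate. Cox7a1 and Cox8b, subunits typical of muscle and brown fat, led with 2.02 and 1.98 (adjusted p = 0.0063 and 0.004), and the ubiquitous Cox5a and Cox4i1 differed by 0.18 and 0.24 and were not called. None of the 25 cell cycle genes was called with all arrays (median -0.89), while 16 fell without anti-IFNAR1 array 2, and Mki67 was at 12.17, 11.39, 11.25 and 11.83 under isotype against 10.21, 12.22, 10.11 and 10.34. The part of muscle content, hair cycle and RNA integrity in the other differences was not tested beyond the values given.

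Set beside syngeneic skin, antibody-treated skin had few called genes. Comparisons with syngeneic arrays share arrays with the main one, so only their own values are given. Isotype skin differed from syngeneic skin at 2973 genes (16.3%), and anti-IFNAR1 skin at 6 (0.033%), all higher. In the comparison of anti-IFNAR1 with syngeneic skin 370 genes had an unadjusted p below 0.05 in limma's moderated test. That is under the share of 0.05 of all genes that chance alone would give. The few calls therefore do not show equal levels. The 6 genes, named after their values were seen, are of lymphocytes and plasma cells. Ms4a4b, a T cell membrane protein, was at 8.36, 8.77, 8.88 and 8.56 under the antibody against 5.44, 5.53, 5.0 and 4.98 in syngeneic skin (3.41, SE 0.50, adjusted p = 0.015). Igha, the immunoglobulin A heavy chain, was at 11.17, 11.53, 8.82 and 12.54 against 6.83, 6.89, 7.11 and 7.18 (4.01, SE 0.67, adjusted p = 0.033). The others were Jchain (3.85, adjusted p = 0.021), Cd3d (1.70, adjusted p = 0.0085), Cxcr6, a chemokine receptor of tissue T cells (1.47, adjusted p = 0.033), and the T cell receptor segment Trav9d-3 (1.20, adjusted p = 0.03). The count depended on the arrays fitted: 1 gene was called without anti-IFNAR1 array 1, without syngeneic array 1 or without syngeneic array 4, 9 without anti-IFNAR1 array 2, and 35 when the 12 day 28 arrays were fitted alone. In that last fit 12 of the 21 interferon gamma-inducible genes were higher than in syngeneic skin, among them Cxcl9 (4.35) and Ubd (3.69), together with Ccl5 (3.12) and Gzmb (3.04), while none of the 37 type I interferon-inducible genes was called and their median was 0.14. The interferon gamma list had a median of 2.15 over syngeneic skin under the antibody and of 3.36 under isotype. The class I list had a median of 0.81 under the antibody, and 4 of its 13 genes were higher in the fit of the 12 arrays. Neither list had a called gene for antibody against syngeneic skin in the fit of all arrays.

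The antibody comparison at day 14 used other arrays, so the days can be set against each other. At day 14 there were 148 calls (0.813%), 29 higher and 119 lower. Of these 71 were also called at day 28, all in the same direction (62 lower and 9 higher), which is 48% of the day 14 calls and 2.93% of the day 28 calls. Type I interferon-inducible genes had medians of -1.33 at day 14 (8 of 37 fell) and -1.61 at day 28 (28 of 37 fell). Epidermal stress genes had a median of -1.35 at day 14 with none called, and -4.57 at day 28. Adipocyte genes had a median of 0.38 at day 14 with none called, and 2.00 at day 28. Called on one day and not on the other does not show a difference, and the test of the difference itself reached the threshold at 13 genes (0.0715%), with 2468 at an unadjusted p below 0.05.

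**Figure D5:**
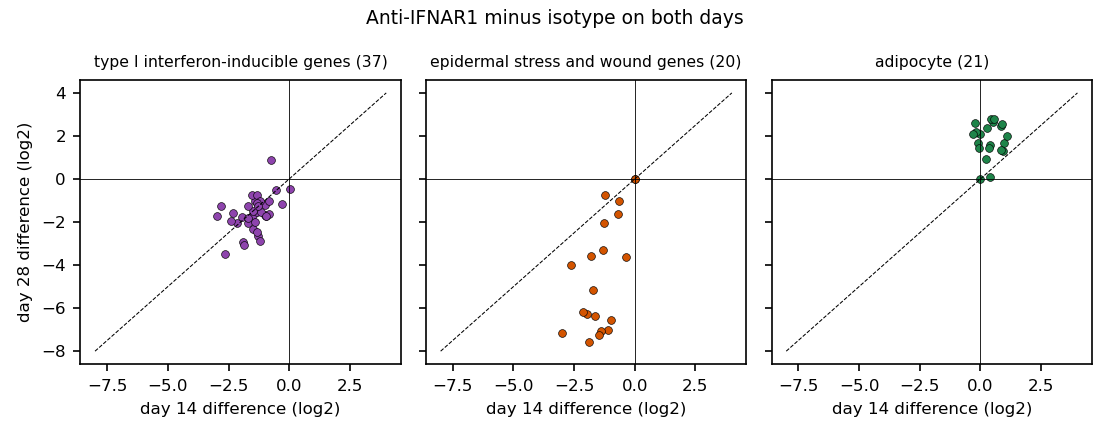
Log2 difference of anti-IFNAR1 and isotype arrays at day 14 (horizontal axis) and day 28 (vertical axis) for each gene of 3 lists; the dashed line marks equal values. Type I interferon-inducible genes (37) scatter around the line, with medians of -1.33 and -1.61, most epidermal stress and wound genes (20) lie below it, with medians of -1.35 and -4.57, and adipocyte genes (21) lie above it, with medians of 0.38 and 2.00.

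The 13 genes whose response differed between the days included 1 adipocyte gene, Fabp4, and no member of the epidermal stress or differentiation lists. Sprr2k, a small proline-rich protein, was at 6.54, 6.50, 6.44 and 6.86 under isotype and at 4.74, 4.70, 4.76 and 4.76 under the antibody at day 28 (-1.85, SE 0.08, adjusted p = 9.1e-11), while its day 14 difference was -0.10. Cpa4, a carboxypeptidase, was at 10.28, 10.27, 9.82 and 9.99 against 8.06, 8.42, 7.89 and 7.58 at day 28, a difference of -2.10, and 0.02 at day 14. Sncg, gamma-synuclein, which is abundant in fat, was at 7.05, 7.27, 7.73 and 7.12 against 10.99, 9.82, 10.83 and 11.13, a difference of 3.40, and 0.11 at day 14. Ighg3, an immunoglobulin G heavy chain, differed by -3.18 at day 28 and -0.03 at day 14. The antibody arrays of day 28 were apart from the isotype arrays for all 4 of these genes. P2ry13, a nucleotide receptor of microglia and macrophages, was the exception that differed at day 14 (-1.68) and not at day 28 (-0.12). Which genes reached this threshold depended on the arrays: the count was 2 without anti-IFNAR1 array 3 or 4, 4 without anti-IFNAR1 array 1, 8 without isotype array 1, 41 without isotype array 2, 68 without isotype array 3 and 106 without anti-IFNAR1 array 2.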

How the data were processed

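The deposited intensities of 45101 probe sets on 24 Affymetrix arrays, hybridised with biotin-labelled cRNA per the labels' protocols, were taken on their linear scale as the authors deposited them; the summarisation and normalization behind them are not given in the sources used here. Intensities ranged from 1.68 to 92640, and the number of arrays limits the precision. Of the probe sets, 34945 carried 1 gene symbol, 932 several, 9160 none and 64 were controls, and symbols were updated through gene identifiers for 34741. The probe set of highest mean stood for each of 18193 genes. Levels were log2(intensity + 16), with offsets of 1 and 64 as alternatives, and no filter on low values was applied.

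Group means of all 24 arrays (6 groups) were fitted with limma 3.58.1 in R 4.3.3, with Benjamini-Hochberg adjustment over all genes. Same-numbered isotype and anti-IFNAR1 arrays deviated together with r = 0.218, -0.287, 0.335 and -0.027, so numbers were not taken to pair arrays. The procedure was tested on simulated data.

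The members and the 36 gene lists (673 distinct genes measured) were chosen with earlier results of these data known. Named were the 15 largest called rises and falls with groups apart, the 4 largest called members of each list (2 of smallest p where fewer passed), the 5 largest differences between days each way, and the receptor, Rag, marker and quality genes; other genes named were chosen after their values were seen. Alternatives with a covariate (muscle, hair follicle, Gapdh ratio) or without the highest hair follicle or Gapdh arrays were added after seeing the data. Some genes are not analysed here.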

Additional observations from a re-analysis of the deposited data

Results flagged for a closer look

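Single arrays lay far from the other 3 of their group in 9 of 72 groups of list means, by Dixon's criterion for 4 values. Chance meets it in about 1 in 20 groups taken singly. The 72 groups come from the same 8 arrays and some lists share genes, so the 9 are not independent, and most are anti-IFNAR1 array 2. On anti-IFNAR1 array 2 the mean was 13.15 for hair follicle genes (others 4.79 to 5.48), 8.97 for melanocyte genes (5.56 to 5.78), 11.15 for class I genes (11.56 to 11.60), 7.03 for endothelium (7.63 to 7.70), 10.44 for adipocyte genes (11.14 to 11.24) and 13.48 for skeletal muscle genes (14.06 to 14.16). On isotype array 1 the hair follicle mean was 7.56 (4.76 to 4.84). On isotype array 2 the neutrophil mean was 8.21 (9.40 to 9.60) and the matrix remodelling mean 8.82 (9.29 to 9.38).

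The antibody response differed between day 28 and day 14, by the test of the difference itself, at 13 genes. The difference of the responses, day 28 minus day 14, was 3.29 for Sncg, 2.51 for Tlcd4, 2.39 for Smoc1, 1.88 for Slc5a3, 1.77 for Alad, 1.76 for Fabp4 and 1.56 for P2ry13. It was -3.15 for Ighg3, -2.12 for Cpa4, -2.08 for Nccrp1, -1.74 for Sprr2k, -1.64 for Mall and -1.14 for Lce1g.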

How the results depend on the processing

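The count of 2422 genes in the comparison of antibody and isotype at day 28 was 1539 when only its 8 arrays were fitted, 4860 with array weights, 1221 without the highest Gapdh ratio of each group, 542 with the muscle mean as a covariate and 1340 with a 2-fold minimum, and it ranged from 1668 (without isotype array 4) to 2829 (without anti-IFNAR1 array 2) when 1 array was left out. Under the other settings run it lay between 2151 (without the dimmer genes, where the all-gene median moved to 0.113) and 3213 (Gapdh ratio as a covariate). The 13 genes that differed between days became 42 after quantile normalization, 117 after centring, 43 without the dimmer genes, 20 with a trended robust prior, 1224 with array weights, 27 and 25 with offsets of 1 and 64, 6 with the Gapdh ratio as a covariate, 7 without the highest Gapdh ratios, 53 without the highest hair follicle means, 84 with the hair follicle mean and 3 with the muscle mean as a covariate, and 2 to 106 with 1 array left out. The 6 genes that separated antibody from syngeneic skin became 3 after quantile normalization, 35 in the fit of 12 arrays and 1 to 9 with 1 array left out. With the replicate block, for numbers that do not pair the arrays, the counts were 2213 for the main comparison, 19 between days, 2704 for isotype and 2 for antibody against syngeneic skin. Reversed were the hair follicle median (-0.48 without anti-IFNAR1 array 2, and up to 2.38 with another array left out), Sc5d (0.08 with the mean of all probe sets) and Krt73 (-0.86 with the hair follicle covariate). The cause of these shifts was not tested. Of 250 called genes among those listed or named, 63 kept their call in every setting, 55 lost it on leaving out 1 array and 180 with the muscle covariate. Genes near the bottom of the scale have differences that are understated.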

Other observations

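Several genes outside the comparisons above also had values in antibody-treated skin. Of 8 Schwann cell and nerve genes 2 rose, Pmp22, a myelin protein (0.93), and S100b, a calcium-binding glial protein (0.94), with a list median of 0.74. Of 13 smooth muscle genes 3 rose (Lmod1, Smtn and Cspg4), 1 without isotype array 4 and none in the fit of the 8 arrays. Hdc, the histamine-making enzyme, fell by 3.16 (adjusted p = 0.002) as the 1 called member of 10 mast cell and basophil genes, whose median was -0.21. Ltb, lymphotoxin beta, fell by 2.13 (adjusted p = 0.0021), the 1 called among 8 genes of lymphoid tissue signals. Of 18 stress and immediate early genes 2 fell, with a median of -0.71. Over all genes 13.3% were called and 8.42% called higher, so the mast cell, lymphoid and stress counts say little of their lists. None of the Schwann cell, smooth muscle or mast cell genes was called with the muscle mean as a covariate, and 1 of the stress genes fell.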
